A study of Mus musculus with 6 samples.

Results

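Thrsp and Mid1ip1 are paralogues, genes that descend from a common ancestor, and both act on the making of fatty acids. Thrsp encodes Spot 14, a small protein first found in rat liver as a product that thyroid hormone induces, and it is also induced by feeding in tissues that make fat. Mid1ip1 encodes a Spot 14-related protein, also called MIG12, which was found as a partner of the microtubule-associated ubiquitin ligase MID1. MIG12 binds acetyl-CoA carboxylase, the enzyme that makes malonyl-CoA, and helps it to polymerise into its active form, and Spot 14 can pair with MIG12. In muscle, malonyl-CoA is best known as a brake on the entry of fatty acids into mitochondria.

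The genes were taken from a table of 60 probe sets deposited by the authors, in which 54 probe sets carry 1 gene symbol and name 50 genes. Every probe set with the symbol Thrsp or Mid1ip1 was used, which gave 3 probe sets for 2 of the 50 genes: 1424737_at and 1422973_a_at for Thrsp, and 1416840_at for Mid1ip1. Both genes were selected on the difference between treated and untreated mice, since the table holds probe sets with a difference of at least 2-fold, and they were taken up here because they differ in opposite directions. The size and direction of that difference are therefore given as a description, with no test.

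Quadriceps muscle came from 6 utrn+/-;mdx mice of strain C57BL/10, dissected at 20 weeks of age. These animals have no dystrophin, carry a single intact allele of the utrophin gene, and serve as a model of Duchenne muscular dystrophy. All 6 share this genotype, so there is no healthy muscle to compare with. From 4 weeks of age, 3 mice drank water with 10 mg/kg per day of lisinopril, which blocks angiotensin-converting enzyme, and 37.5 mg/kg per day of spironolactone, which blocks the mineralocorticoid receptor; the other 3 drank plain water, and each group of 3 had 2 males (mice 1 and 2) and 1 female (mouse 3). The drugs were given only together, so their separate effects cannot be told apart. RNA of each mouse was read on 1 array, and all values are log2 expression as deposited.

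The study's labels describe whole muscle, and the arrays were similar in range. Array medians lay between 6.07 and 6.13, and pairs of arrays correlated at 0.974 to 0.995 across 45037 probe sets. Untreated mouse 3 had the lowest mean correlation with the rest, 0.983, so the treatment differences, the spread within groups and the likeness of patterns are also given without it. Slow-fibre sarcomere genes were named in the table (5 of 8 on a marker list), but none of 6 fast-fibre, 4 macrophage, 4 neutrophil, 4 fibroblast or 3 endothelial markers was, and neither dystrophin nor utrophin was, so neither fibre makeup nor genotype could be checked in full.

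The start regions of both genes are shown so that the DNA around the start of each paralogue can be compared. They come from RefSeq (assembly GRCm38.p6) and run from 250 bases before to 50 bases after the gene start, 5′ to 3′ on the gene's own strand. Thrsp lies on the minus strand (chr7:97417501-97417800) and Mid1ip1 on the plus strand of the X chromosome (chrX:10717115-10717414). Capitals mark matches, on either strand, to 5 short motifs: CCAAT, the NF-Y box; TATAAA, the TATA box; CACGTG, an E-box; AGGTCA, the half-site of many nuclear receptors; and GGGCGG, the GC box.
Thrsp: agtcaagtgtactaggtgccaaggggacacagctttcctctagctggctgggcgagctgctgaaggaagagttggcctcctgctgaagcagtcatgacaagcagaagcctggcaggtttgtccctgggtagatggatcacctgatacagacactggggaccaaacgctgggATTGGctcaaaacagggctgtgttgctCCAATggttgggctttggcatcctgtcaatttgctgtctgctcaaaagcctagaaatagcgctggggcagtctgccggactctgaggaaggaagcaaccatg
Mid1ip1: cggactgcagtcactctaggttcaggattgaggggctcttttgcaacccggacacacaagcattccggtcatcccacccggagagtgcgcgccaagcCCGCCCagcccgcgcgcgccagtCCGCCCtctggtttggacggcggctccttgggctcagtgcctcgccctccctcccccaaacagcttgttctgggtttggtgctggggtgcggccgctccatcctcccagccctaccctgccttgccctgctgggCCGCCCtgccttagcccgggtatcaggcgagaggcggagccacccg

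The start regions differed in both composition and motifs. Thrsp had a GC content of 54.3% with 4 CpG dinucleotides, and Mid1ip1 a GC content of 68.0% with 22. Among the 32851 start regions of the same length in the table, 31.4% had fewer CpG dinucleotides than Thrsp and 76.9% had fewer than Mid1ip1. Thrsp held 2 CCAAT boxes, 1 on each strand, at bases -79 to -75 and -52 to -48 from the start, and Mid1ip1 held none. Mid1ip1 held 3 GC boxes, all on the opposite strand, at -153 to -148, at -130 to -125 and at 5 to 10, and Thrsp held none. These motifs are common: 37.4% of all start regions had a CCAAT box and 35.7% a GC box. The TATA box, E-box and half-site letters (in 13.6%, 7.15% and 16.3% of all start regions) were in neither window. No match overlapped another, and a match is only a description of the letters.

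Thrsp was higher in the muscle of treated mice. On 1424737_at the log2 values were 9.57, 9.24 and 8.53 in untreated mice 1, 2 and 3 and 10.11, 9.88 and 10.60 in treated mice 1, 2 and 3. All 3 treated mice lay above all 3 untreated mice, with a gap of 0.309 between the groups, and the females were at both extremes, lowest of the untreated and highest of the treated mice. The group means were 9.12 ± 0.533 untreated and 10.20 ± 0.367 treated (SD, n = 3 each), a difference of 1.08 (SE 0.287) or 2.12-fold.

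The other Thrsp probe set gave the same picture. On 1422973_a_at the values were 8.67, 8.35 and 7.69 in untreated mice and 9.34, 8.97 and 9.70 in treated mice, in the same order of mice. The means were 8.24 ± 0.502 and 9.33 ± 0.366 (SD, n = 3 each), a difference of 1.10 (SE 0.276) or 2.14-fold. The groups again did not overlap, with a gap of 0.293. The probe sets differed from each other by 0.777 to 0.917 in single mice, with a mean of 0.873 and an SD of 0.0533, so that the offset between them was nearly constant over all 6 arrays. Among the 45036 other probe sets, the one with the pattern nearest to each Thrsp probe set was the other Thrsp probe set, at a mean absolute difference of 0.0419 between their log2 values centred on their own 6-mouse means. They read the same gene in the same RNA, so they count as 1 measurement of it and not as replicates.

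Mid1ip1 was lower in the muscle of treated mice. The log2 values on 1416840_at were 10.78, 11.78 and 12.43 in untreated mice 1, 2 and 3, and 10.48, 10.27 and 10.31 in treated mice 1, 2 and 3. All treated mice lay below all untreated mice, but the gap to untreated mouse 1 was only 0.301, and the untreated female stood highest. The means were 11.66 ± 0.832 and 10.35 ± 0.111 (SD, n = 3 each), a difference of -1.31 (SE 0.366), or 2.48-fold lower. In a bulk sample, less RNA per cell and fewer cells that make it cannot be told apart, for either gene.

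**Figure D1:**
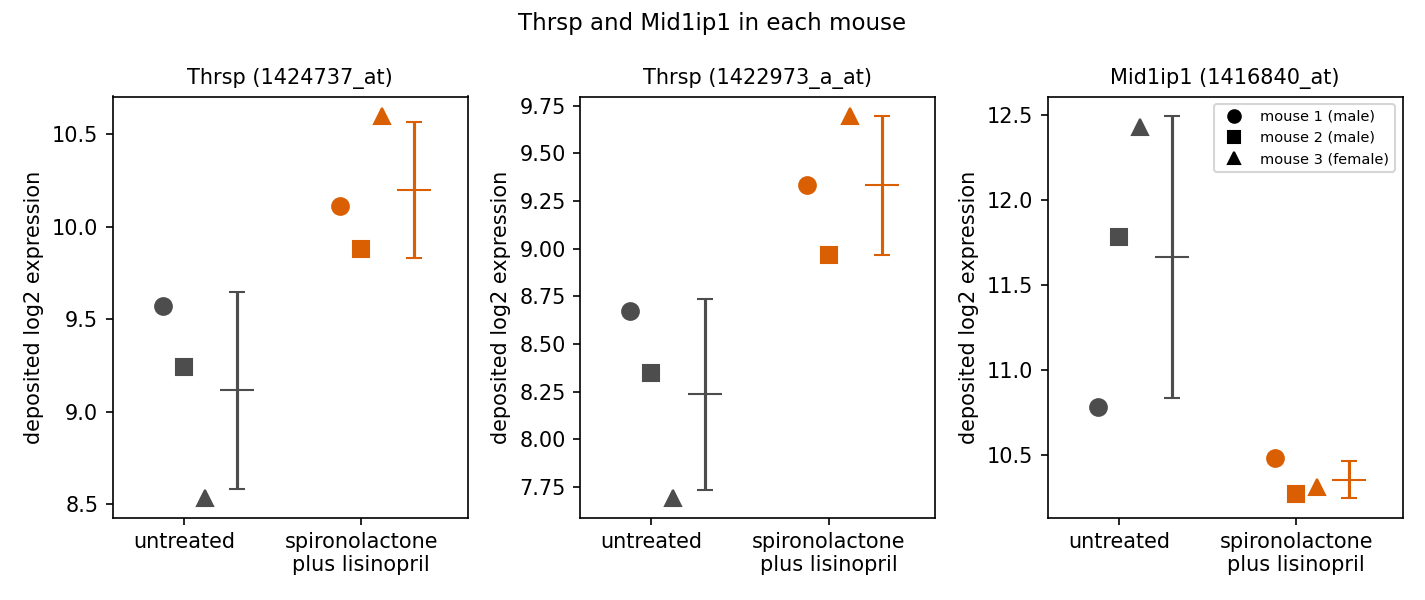
Deposited log2 expression of the 2 Thrsp probe sets and the Mid1ip1 probe set in each mouse, untreated (grey) and treated (orange), with each panel on its own axis; circles, squares and triangles are mice 1, 2 and 3, and the bars beside the points give the mean and SD of 3 mice. The groups do not overlap in any panel, and the treated Mid1ip1 values lie within 0.208 of each other while the untreated ones span 1.65.

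The authors' deposited table gives the same sizes as linear class means. For Thrsp the authors' deposited table lists geometric means of 554.6 in control and 1175 in treated mice on 1424737_at, and 301.5 and 644.9 on 1422973_a_at. For Mid1ip1 the authors' deposited table lists 3243 in control and 1307 in treated mice. Signal per amount of RNA differs between probe sets, so a higher signal of Mid1ip1 than of Thrsp does not order the transcripts by abundance, and their levels were not compared.

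Both genes met the conditions by which the table can be described, and the shares over all probe sets give the setting. A difference of 2-fold or more with an unadjusted limma p under 0.05 was found for 0.153% of the 45037 probe sets, 0.0844% higher and 0.0688% lower in treated mice. Groups that do not overlap, as for all 3 probe sets here, were found for 14.3% of all probe sets, 9.1% higher and 5.22% lower in treated mice. By fold, Mid1ip1 ranked 10 among the 28 listed probe sets that were lower, and Thrsp ranked 21 and 24 among the 32 that were higher. Among the higher probe sets, the one nearest to the 2-fold limit from inside was that of Jph2 at 2.01-fold, and the probe sets just outside, which have no gene name in these files, were 1428420_a_at at 1.98-fold higher and 1422286_a_at at 1.99-fold lower.

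The mice of a group differed from each other far more for Mid1ip1 in untreated than in treated muscle. Its untreated SD of 0.832 was larger than that of 98.7% of all probe sets, and its treated SD of 0.111 was larger than that of only 44.6%. The ratio of the SDs was 7.53. On the linear scale the untreated mice spanned a 3.14-fold range and the treated mice a 1.16-fold range. Over all probe sets 60.6% had the larger SD in untreated mice, as did 44 of the 60 listed ones. Without untreated mouse 3 the untreated SD of Mid1ip1 was 0.708 (n = 2) and the ratio 6.41. With 3 mice per group the difference in spread was not tested.

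For Thrsp which group had the larger spread rested on untreated mouse 3. The SD on 1424737_at was 0.533 untreated and 0.367 treated, a ratio of 1.45, and on 1422973_a_at the ratio was 1.37. Both SDs were high for this array set, larger than 95.3% and 95.8% of those of all probe sets in untreated and treated mice on 1424737_at. The untreated mice spanned a 2.06-fold and the treated mice a 1.65-fold range on this probe set. Without untreated mouse 3 the untreated SD was 0.235 (n = 2), and the ratios turned to 0.639 on 1424737_at and 0.630 on 1422973_a_at.

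Set side by side mouse by mouse, the paralogues ran in opposite order in untreated muscle and not in treated muscle. Relative to its own 6-mouse mean, Mid1ip1 stood at -0.23, 0.77 and 1.42 in untreated mice 1, 2 and 3, and Thrsp (1424737_at) at -0.08, -0.42 and -1.13. The untreated mouse with the highest Mid1ip1 thus had the lowest Thrsp, and the reverse held for untreated mouse 1, which was nearest to the treated mice for both genes. Without mouse 3 the order rests on 2 untreated mice. In treated mice 1, 2 and 3 Mid1ip1 stood at -0.53, -0.74 and -0.70 and Thrsp at 0.46, 0.23 and 0.94. There the mouse with the lowest Mid1ip1, mouse 2, also had the lowest Thrsp, but its Mid1ip1 differed from that of mouse 3 by less than the treated SD.

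Because both genes were chosen for the treatment difference and the groups form separate clusters, no correlation over the 6 mice is given, and 3 mice are too few for one within a group. The treatment differences of the paralogues lay 2.39 apart on the log2 scale with 1424737_at and 2.41 with 1422973_a_at (Mid1ip1 minus Thrsp, -2.39 and -2.41), as the choice of genes with opposite directions fixes. With the sign of 1 gene turned, the mean absolute difference between Thrsp (1424737_at) and Mid1ip1 was 0.300 over all mice. By that measure each paralogue ranked between 29 and 360 among 45036 probe sets as a mirror of the other, depending on the probe set and on which gene was turned, but this rank includes the treatment difference for which both genes were chosen. Once the group means had been taken out, the ranks lay between 2560 and 12293. Without untreated mouse 3 the ranks lay between 462 and 2568 over all mice and between 27851 and 39306 within groups. The mean absolute differences within groups moved little, from 0.275 to 0.299 with all mice to 0.293 to 0.315 without that mouse. Such a rank also depends on how far the values of all probe sets spread. Without that mouse the untreated SD fell from 0.533 to 0.235 for Thrsp (1424737_at) and from 0.832 to 0.708 for Mid1ip1. The mean absolute differences thus stayed while there was less spread to mirror. Most of the 45036 probe sets were then nearer to the mirror of each paralogue than the other paralogue was. Within groups, the paralogues therefore did not stand out as mirrors of each other without that mouse.

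**Figure D2:**
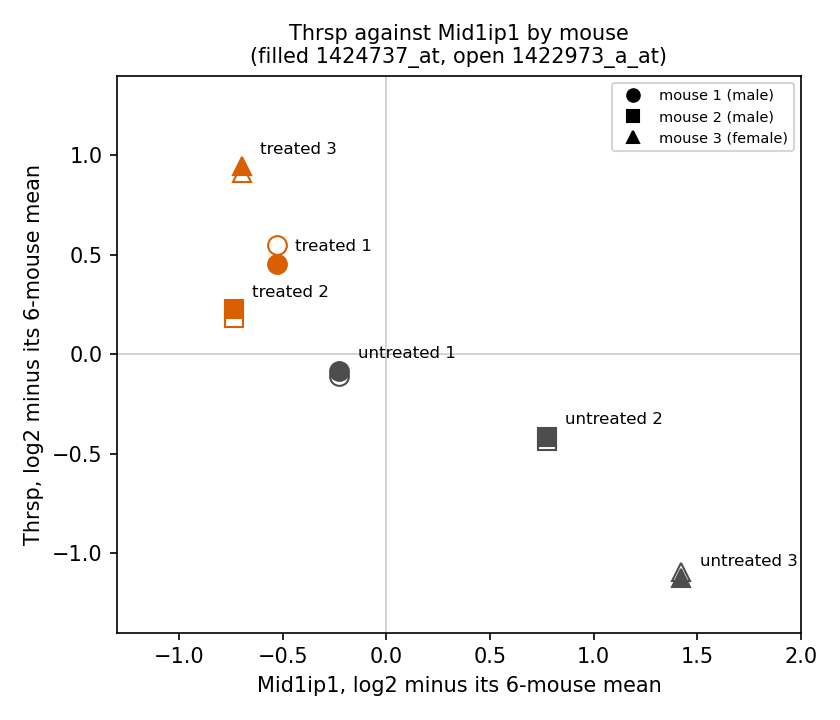
Thrsp (vertical axis; filled symbols 1424737_at, open symbols 1422973_a_at) against Mid1ip1 (horizontal axis), each as log2 expression minus its own 6-mouse mean, with 1 pair of symbols per mouse, untreated in grey and treated in orange. The untreated mice are spread along a falling diagonal, and the treated mice share a narrow range of Mid1ip1, from -0.74 to -0.53, at different Thrsp values.

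Sex could be tested, because the choice of genes did not use it and each group has 2 males and 1 female. With treatment as a term, females minus males was -0.14 (SE 0.313) for Thrsp on 1424737_at, -0.14 (SE 0.301) on 1422973_a_at and 0.54 (SE 0.347) for Mid1ip1, an X-linked gene. None passed (limma adjusted p = 0.949, 0.947 and 0.849 over 45037 probe sets), where 0.00888% of all probe sets passed and 4.8% had an unadjusted p under 0.05. With 2 females in all, the SE leaves room for sex differences in either direction for Thrsp.

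The treatment difference was larger between the females than between the males for both genes. For Thrsp on 1424737_at the treated female exceeded the untreated female by 2.07, or 4.20-fold, and the mean of the treated males exceeded that of the untreated males by 0.59, or 1.51-fold. On 1422973_a_at these differences were 2.01 and 0.64. For Mid1ip1 the difference was -2.12 between females, 4.35-fold lower, and -0.91 between males, 1.87-fold lower. The interaction of treatment with sex was 1.48 (SE 0.295) and 1.37 (SE 0.326) for Thrsp and -1.22 (SE 0.547) for Mid1ip1, and none passed (limma adjusted p = 0.575, 0.757 and 0.973). The limma interaction called 0% of all probe sets, and 5.16% (2325) had an unadjusted p under 0.05, among them both Thrsp probe sets but not Mid1ip1. The estimate uses a lone female in each group, whose spread is taken to equal that of the males, and the untreated female is the array with the lowest mean correlation.

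The size of the difference depended on single mice, though its direction was the same without each of the 6 mice in turn. Without untreated mouse 3, Thrsp differed by 0.79 (1.73-fold) on 1424737_at and 0.82 (1.77-fold) on 1422973_a_at, and Mid1ip1 by -0.93 (1.90-fold lower). Without untreated mouse 1 the differences were 1.31, 1.32 and -1.75. These are the smallest and largest values that leaving out 1 mouse gave for each of the 3 probe sets.

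**Figure D3:**
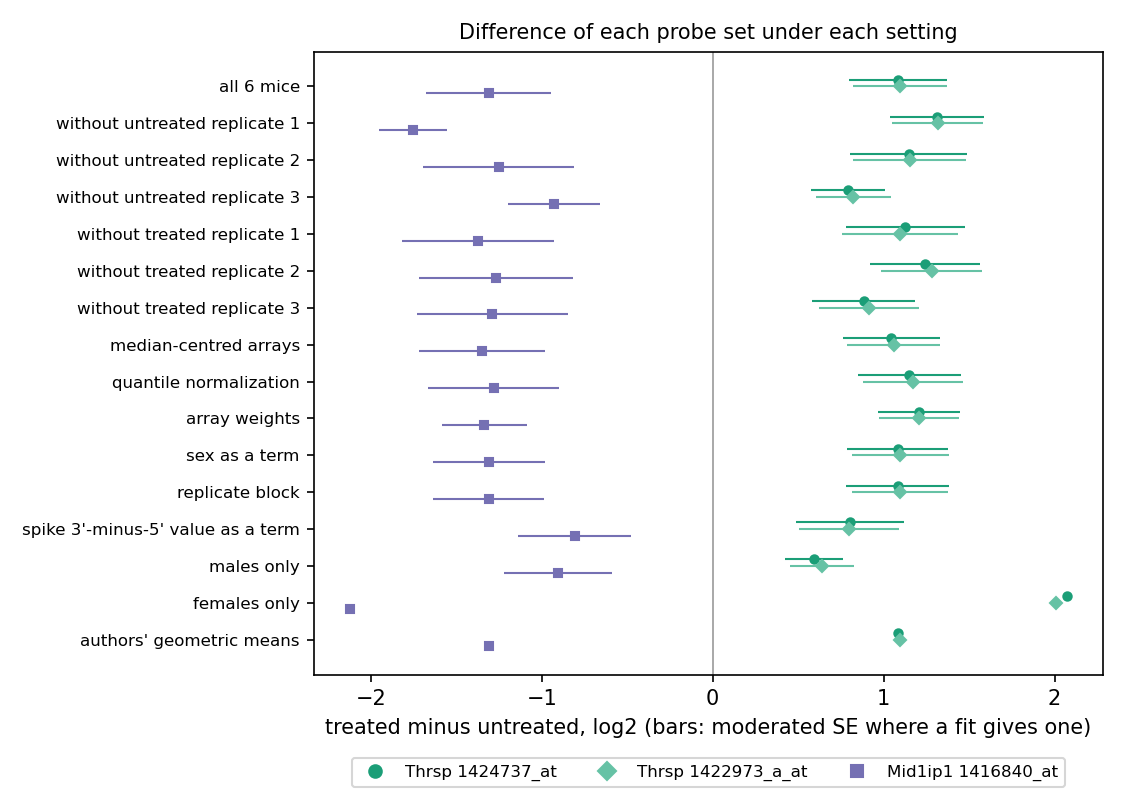
Treated minus untreated log2 difference of each probe set (horizontal axis) under each setting (vertical axis), where replicate numbers are mouse numbers and bars are moderated standard errors where the fit gives one. Thrsp (circles and diamonds) stays above 0 and Mid1ip1 (squares) below 0 in every setting, with the extremes at males only, females only and, for Mid1ip1, the spike term.

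Other genes were read from a list of 25 drawn up for fat synthesis, of which only 4 are named in the authors' table: Gpd1, Ces1d, Cidec and Pck1. Not all 4 make fat, since Ces1d splits triglycerides and Cidec is a lipid droplet protein. All 4 had higher means in treated mice, with a median difference of 1.17 against 0.03 over all 45037 probe sets, and 57.1% of all probe sets had a higher mean in treated mice. The authors' 2-fold selection sets both their number and their size. Acetyl-CoA carboxylase itself (Acaca and Acacb), fatty acid synthase (Fasn) and stearoyl-CoA desaturase (Scd1) are not among the named genes, so the enzyme on which both paralogues act was not analysed here. Gpd1, which makes glycerol-3-phosphate, the backbone of triglycerides, read 10.089, 8.865 and 9.002 in untreated and 10.456, 10.082 and 10.749 in treated mice. Its treated mice were above untreated mice 2 and 3, but treated mouse 2 lay just below untreated mouse 1, so the groups overlapped (2.16-fold higher).

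Ces1d, a carboxylesterase that splits triglycerides, was 2.33-fold higher and Cidec, a lipid droplet protein, 2.41-fold higher. The groups did not overlap for either, but the gap was only 0.00642 for Ces1d and 0.0734 for Cidec, both set by treated mouse 2. Pck1, which feeds glycerol synthesis in fat cells, was 2.15-fold higher with overlapping groups. For Ces1d, Cidec and Pck1 treated mouse 2 was far below the other treated mice: Ces1d read 7.026 in it, against 8.55 and 8.64 in the others and 7.019 in the highest untreated mouse. Thrsp was also lowest in treated mouse 2 among the treated mice, but by a smaller step.

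None of 21 listed regulators of Thrsp and of fat synthesis, such as the thyroid hormone receptors, Srebf1 and Mlxipl, was named. Of 19 genes on a list drawn up for control of the carboxylase and burning of fatty acids, 2 were named, Ppp1r3c and Sik1. Neither is an enzyme that burns fatty acids, and whether they act on the carboxylase was not examined. Ppp1r3c, a subunit that directs protein phosphatase 1 to glycogen, was higher by 1.05 (SE 0.263). Sik1, a kinase related to the AMP-activated kinase, was lower by 1.20 on the log2 scale (difference -1.20, SE 0.385). The groups did not overlap for either, against 9.1% of all probe sets higher and 5.22% lower in treated mice without overlap. Both genes come from the authors' 2-fold selection, so nothing is read from this. Sik1 was dim in treated mice, at 5.30 to 5.89, below the array medians of 6.07 to 6.13.

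Thrsp is also expressed in fat cells, and the named fat cell markers had higher means in treated mice. Of 16 listed markers 5 were named (Cfd, Cyp2e1, Retn, Cidec and Pck1), all 5 with higher means in treated mice, against 57.1% of all probe sets. For 2 of them, Cyp2e1 and Cidec, the groups did not overlap, against 9.1% of all probe sets with higher values in treated mice and no overlap. The 2-fold selection of the table fixes the size of these differences, so nothing is read from the counts. Cidec and Pck1 are also on the fat synthesis list. The summed linear signal of all 5 named markers was 2155 to 4529 in untreated and 4091 to 14029 in treated mice. The mean log2 value of the 5 was 8.19, 7.64 and 8.32 in untreated mice 1, 2 and 3. In treated mice 1, 2 and 3 it was 9.71, 8.35 and 10.16. Within the treated group the mice had the same order as for Thrsp, with mouse 3 highest and mouse 2 lowest. Within the untreated group they did not: mouse 3 had the highest marker mean and the lowest Thrsp. The markers Adipoq, Lep, Plin1 and Fabp4 are not named, the dimmest named one, Pck1, read 5.87 to 6.23 in untreated mice, near the array medians, and the part of fat cells in the Thrsp difference was not tested.

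Mid1ip1 ran beside slow-fibre markers and a technical measure in untreated mice. The mean of the 5 named slow-fibre genes (Myl2, Tpm3, Tnnt1, Tnnc1 and Myl3) was 8.28, 10.49 and 11.62 in untreated mice 1, 2 and 3, the same order as Mid1ip1, and 7.34, 7.65 and 8.92 in treated mice. Their summed linear signal was 2763 to 22619 untreated and 1474 to 3215 treated. In treated muscle these markers were highest in mouse 3, where Mid1ip1 was near its low. The only named Schwann cell marker of 4, Mbp, read 8.03, 8.63 and 8.99 in untreated mice and 7.30, 7.77 and 7.28 in treated mice. The 3′-minus-5′ signal of 4 poly-A spikes, RNAs added as a check on labelling, was 1.44, 1.69 and 1.76 untreated and 1.32, 1.52 and 1.53 treated. Among treated mice the spike value was lowest in mouse 1, where Mid1ip1 was highest. Mbp was highest in treated mouse 2, where Mid1ip1 was lowest. With the spike value as a term the difference of Mid1ip1 was -0.81 (1.75-fold lower), and that of Thrsp was 0.81 and 0.80. The part of slow fibres, of Schwann cells and of labelling in the Mid1ip1 difference was otherwise not tested.

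**Figure D4:**
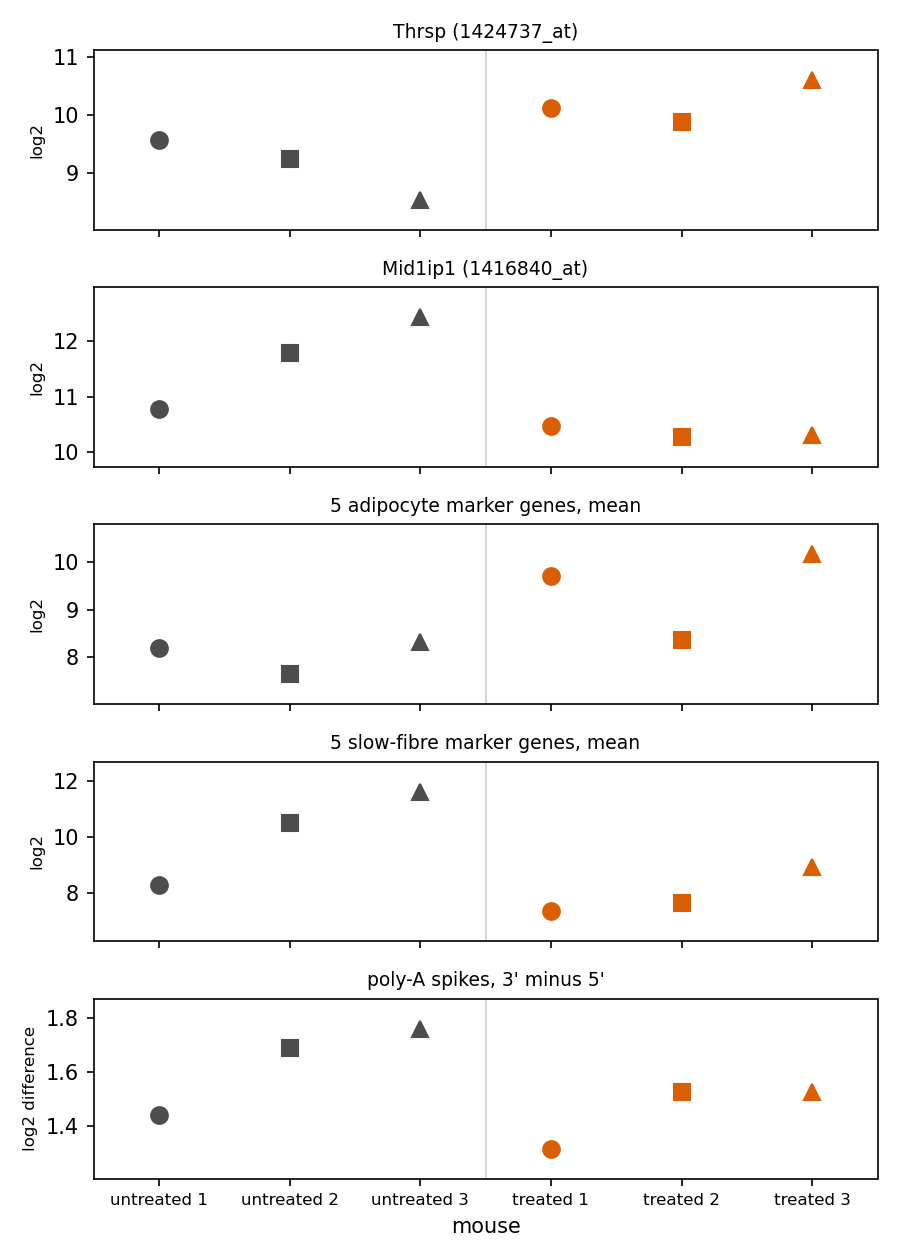
Values of each mouse (horizontal axis), untreated in grey and treated in orange, for Thrsp, Mid1ip1, the mean of 5 named adipocyte markers, the mean of 5 named slow-fibre markers (all log2 expression) and the 3′-minus-5′ log2 signal of the poly-A spikes. In untreated mice Mid1ip1, the slow-fibre mean and the spike value share 1 order, with mouse 3 highest, and Thrsp has the opposite order.

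By the mean absolute difference of centred log2 values over the 6 mice, the named genes most like Thrsp (1424737_at) were Itgb1bp3 at 0.214, Gpd1 at 0.227 and Tob1 at 0.286. The same 3 genes were nearest to 1422973_a_at, and nearest to both probe sets when values were centred within groups. Itgb1bp3, now named Nmrk2, is a muscle kinase that makes nicotinamide mononucleotide. It read 11.19, 11.04 and 10.61 in untreated and 11.58, 12.11 and 12.40 in treated mice, with the untreated low and the treated high in the females, as for Thrsp. Tob1, a protein that restrains cell proliferation, read 8.51, 7.55 and 6.74 in untreated mice and 9.11, 8.39 and 8.88 in treated mice. Its untreated mice had the order of Thrsp, but its groups overlapped.

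The named genes most like Mid1ip1 were Ankrd1 at 0.142, Inhbb at 0.186 and Itga5 at 0.199, and the same 3 were nearest within groups, Ankrd1 there by its other named probe set. Ankrd1, a sarcomere protein whose gene responds to stretch and injury, read 11.82, 13.02 and 13.73 in untreated mice and 11.67, 11.98 and 11.59 in treated mice on 1420991_at. Its untreated mice had the order of Mid1ip1, and treated mouse 2 lay above untreated mouse 1, so its groups overlapped. Inhbb, a subunit of activin and inhibin, read 6.52, 7.09 and 8.50 in untreated and 6.37, 6.22 and 6.16 in treated mice, with no overlap and a narrow treated range. Itga5, the alpha chain of the fibronectin receptor, read 6.09, 6.91 and 7.77 untreated and 5.68, 6.15 and 5.82 treated, with treated mouse 2 just above untreated mouse 1. The treated values of Inhbb and Itga5 were near the array medians of 6.07 to 6.13, where the processing can compress dim values. Their treated ranges are therefore not comparable with that of Mid1ip1, which was far brighter. All of these genes come from the authors' selection on the same mice, so likeness over all 6 mice partly repeats that selection. Without untreated mouse 3, 2 of the 3 genes nearest to each probe set over all mice were the same; within groups this held for 1 and 2 of 3 for the Thrsp probe sets and for 3 of 3 for Mid1ip1.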

How the data were processed

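Expression was measured on 1 array per mouse, and mice were grouped by the sample titles. The deposited value table holds log2 values of 45101 probe sets. The submitters' processing notes name RMA, Affymetrix Expression Console and Transcriptome Analysis Console. The settings, annotation version and build were not given in the sources used here. RMA as usually run equalizes arrays, which hides any change common to most genes, and it compresses dim values. A second table, deposited by the authors, holds the same log2 values (within 0.00033) of 60 probe sets with gene symbols and, per the file headers, a parametric p-value, a geometric mean intensity per class, and the treated over control ratio as a linear fold. Its deposited signed fold change was read as a score.

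After removal of 64 control probe sets, the other 45037 were fitted with limma 3.58.1 (R 4.3.3), using lmFit and eBayes. The fitting code was checked on simulated data beforehand. Tests were two-sided at a threshold of 0.05 on p-values adjusted by Benjamini and Hochberg's method over all 45037. The sex contrast had treatment as a term, and the interaction had both. Errors are SDs between mice, which the labels call biological replicates, or moderated standard errors (SE). The number of arrays limits the precision. Alternatives were leaving out each mouse, median centring, quantile normalization, array weights, sex, replicate number or the spike signal as a term, a filter on dim probe sets, a variance trend, the authors' class means and, chosen after the data had been seen, each sex alone and, for spread and likeness, leaving out untreated mouse 3. The genes, lists and settings were chosen with earlier results of these data known. Lists were counted by each gene's brightest named probe set. Named genes are Thrsp and Mid1ip1, named list genes, the 3 genes nearest to each probe set in pattern, and the neighbours of the 2-fold limit, of which 1 is not reported here. Of 54 probe sets with 1 symbol, 50 matched RefSeq by Entrez identifier, and both genes matched a RefSeq start region.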

Additional observations from a re-analysis of the deposited data

How the results depend on the processing

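The treatment differences kept their direction in all 75 alternative values computed for the 3 probe sets and for the gap between the paralogues. Leaving out 1 mouse gave 0.79 to 1.31 for Thrsp on 1424737_at, 0.82 to 1.32 on 1422973_a_at and -1.75 to -0.93 for Mid1ip1, and -3.07 to -1.72 and -3.07 to -1.75 for Mid1ip1 minus Thrsp. Only the sexes taken alone moved a value by more than the spread between mice: males only gave 0.59 and 0.64 for Thrsp, and females only gave 2.07 and 2.01 for Thrsp, -2.12 for Mid1ip1 and -4.19 and -4.13 for the gap. The fold moved by over 1.5 times under females only for each probe set. With the replicate block the differences stayed at 1.08, 1.10 and -1.31, and 112 in place of 69 probe sets were at 2-fold with an unadjusted limma p under 0.05, a count added after seeing the data. The labels number the mice but name no pairs, and mouse 3 is the female of each group. Deviations of same-numbered mice from their group means correlated at 0.517, -0.0824 and 0.183, and not every mouse correlated best with its own number. With 3 mice per group these deviations constrain each other, so they cannot show whether the mice are paired.

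No sex difference or interaction passed (limma adjusted p) in any of 66 alternative values. The sex difference of Thrsp turned positive with the spike term (0.16 and 0.19). Leaving out 1 mouse gave -0.88 to 0.60 and -0.82 to 0.55 for Thrsp and -0.0647 to 1.15 for Mid1ip1, so its sign rests on single mice. The interaction ranged over the alternatives from 1.31 to 1.65 and from 1.18 to 1.55 for Thrsp and from -1.72 to -0.71 for Mid1ip1, with a lowest limma adjusted p of 0.0786 (Thrsp on 1424737_at, spike term), and has no value without either female. When single mice were left out, the count of 69 ranged from 42 to 429: it became 42 without treated mouse 1, 111 without treated mouse 2 and 429 without untreated mouse 1. List counts changed only for slow-fibre markers, from 5 genes to 6 probe sets, and the largest in place of the mean absolute difference kept 2 or 3 of the 3 genes nearest to each probe set. Without untreated mouse 3 (added after seeing the data) the ratio of SDs of Thrsp turned from above 1 to 0.639 and 0.630. Signal over background could not be examined, because no scanner intensities were used.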
